A study of Mus musculus with 9 samples.

Results

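The 10 genes described here encode proteins of the elastic fibre and of the microfibrils around it: elastin (Eln), fibrillin-1 and fibrillin-2 (Fbn1, Fbn2), fibulin-1, fibulin-2 and fibulin-5 (Fbln1, Fbln2, Fbln5), emilin-1 (Emilin1) and the microfibril proteins Mfap2, Mfap4 and Mfap5. They were taken by gene symbol from a table of 56691 genes, and each symbol matched 1 row. RNA was sequenced from NIH/3T3 cells, an established line of mouse embryonic fibroblasts labelled as wild type, in 9 libraries of 3 groups. The co-treated group (3 libraries) received UVA at 10 J/cm2 and alpha-arbutin, a glucoside of hydroquinone. The UVA group (3 libraries) received that UVA dose alone, by its treatment label, although its titles read MOCK, and the control group (3 libraries) has no treatment entered in its label. All groups share the line, its genotype, a DMEM medium with fetal bovine serum and the RNA extraction kit. The labels give no dose or time for alpha-arbutin and do not say that replicates came from separate cultures, so p-values measure the spread between these libraries, which may be technical. The study asks whether alpha-arbutin counters UVA damage in fibroblasts. Library totals ran from 16298348 to 20862894 counts.

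Elastic fibres give skin, arteries and lung their recoil. Fibroblasts secrete fibrillins, which assemble into microfibrils, and on these a core of elastin is laid down and crosslinked by lysyl oxidases; fibulins, emilins and microfibril-associated proteins join the elastin to the microfibrils and to the cell. Microfibrils also bind latent TGF-beta, and loss or disorder of dermal elastic fibres is a known feature of sun-damaged skin.

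The identity of the cells was checked on 11 fibroblast markers, of which 9 passed the filter on low counts. Their summed level was 6095 to 6352 CPM (counts scaled to library size) in co-treated, 6383 to 6667 CPM in UVA and 8325 to 8579 CPM in control libraries, and Fap and Lum were near 0. Vim held the most counts of the 11, 523275 over the 9 libraries. It was higher in UVA than in control cells while 6 of the markers were lower, as given below, so the sum does not show the single markers. Epithelial, endothelial and immune markers, 5 of each, summed to at most 6.68 CPM in any library, with Epcam and Cd3e at 0 counts throughout. Smooth muscle markers summed to at most 86.9 CPM, mostly Acta2 and Smtn, while Myh11 and Cnn1 had 28 and 12 counts in all 9 libraries. Of the 5 chondrocyte markers Sox9 alone passed the filter. These 5 markers summed to 194 to 206 CPM in co-treated, 190 to 224 CPM in UVA and 133 to 137 CPM in control libraries. That sum was nearly all Sox9, with 28936 counts, and exceeded the smooth muscle sum in every library. Markers of other lineages were therefore low but not all absent. Besides Sox9, the smooth muscle markers Acta2, Smtn and Des passed the filter on low counts. So did Cdh5 (611 counts over the 9 libraries), Cdh1 (382), Cd68 (669) and Ptprc (74).

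The set split into 5 genes that were measured well and 5 that were barely detected. Fbln2, Fbln5, Fbn1, Emilin1 and Mfap5 passed the filter on low counts, with at least 91 counts in each of the 9 libraries, and the other 5 members did not pass and were not tested. Eln, the gene for tropoelastin, the soluble precursor of the elastic core (ENSMUSG00000029675, chromosome 5, 134731447 to 134776177, minus strand on mm39), had 0 counts in all 9 libraries. Over the 162101963.0 counts of the series that allows a level of up to 0.0185 CPM, or 0.00229 FPKM (3 counts over all libraries; counting error only). FPKM are counts scaled to exonic length and to the total counts of the library, so they can be compared between genes. So although the genes are grouped by their place in the elastic fibre, no elastin transcript was detected at this depth, and what was measured is the microfibril, fibulin and emilin part.

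The other barely detected members were spread over the groups. Fbn2, the fibrillin best known from embryonic tissue (chromosome 18), had 0, 2 and 4 counts in co-treated, 1, 0 and 1 in UVA and 0, 2 and 1 in control libraries. Of the fibrillin counts Fbn2 made up 6 of 1968 in co-treated cells, or 0.305% (0.112 to 0.662%), 2 of 1958 in UVA cells, or 0.102% (0.0124 to 0.368%), and 3 of 5407 in control cells, or 0.0555% (0.0114 to 0.162%). The exact Clopper-Pearson 95% intervals take the summed counts of 3 libraries as independent and cover counting error only. In each group nearly all fibrillin counts were of Fbn1, and that share also moves with Fbn1 itself. Fbln1, a fibulin of basement membranes and elastic tissue, had 1 count in all, in a control library. Mfap2, which encodes the fibrillin-binding protein MAGP-1, had 1 count in a co-treated and 1 in a control library. Mfap4, which encodes an extracellular protein that binds elastin and collagen, also had 1 count in a co-treated and 1 in a control library; its gene overlaps Mapk7 on the other strand by 89 bases, and Mapk7 had 4461 counts. At these counts no difference between groups was detectable for the 5 genes.

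**Figure D1:**
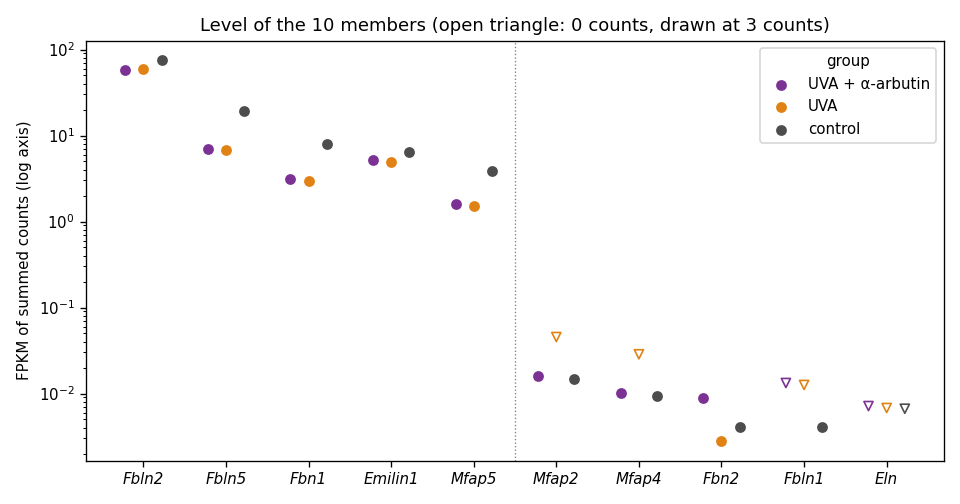
Level of each of the 10 members in the 3 groups, as FPKM of the counts summed over the 3 libraries of a group (log axis); filled points have at least 1 count, and open triangles mark groups with 0 counts, drawn at the level of 3 counts. The 5 genes left of the dotted line lie between 1.51 and 76.2 FPKM, and those right of it at or below 0.0159 FPKM where they had any count.

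Among the detected members Fbln2 was by far the most abundant. Fbln2 encodes a fibulin that binds fibrillin-1 and basement membrane proteins (ENSMUSG00000064080, chromosome 6, 91189437 to 91249522, plus strand) and averaged 57.5 ± 2.42 FPKM in co-treated, 59.7 ± 2.59 FPKM in UVA and 76.0 ± 1.79 FPKM in control cells (SD, n = 3 each). In control cells that mean was above 96.3% of the 14151 tested genes. Fbln5 followed in control cells at 19.2 ± 0.352 FPKM, then Fbn1 at 8.01 ± 0.165, Emilin1 at 6.35 ± 0.153 and Mfap5 at 3.83 ± 0.670 FPKM, and no neighbours in that order overlapped in their 3 libraries. In co-treated and in UVA cells the order was different, with Emilin1 above Fbn1 in every library. Co-treated libraries had overlapping ranges of Fbln5 (5.63 to 8.59 FPKM) and Emilin1 (4.83 to 5.67 FPKM); in the UVA libraries these ranges were apart. The 10 members together summed to 74.5 ± 4.09 FPKM in co-treated, 76.0 ± 2.10 in UVA and 113 ± 1.81 in control cells (SD, n = 3 each). Fbln2 made up 77.2% ± 1.08 of that sum in co-treated, 78.5% ± 1.70 in UVA and 67.0% ± 0.616 in control cells.

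UVA-treated cells had less RNA of every tested member than control cells. The differences came in 2 sizes: Fbn1, Fbln5 and Mfap5 were at 36.2 to 39.8% of control, and Fbln2 and Emilin1 at 79.2 to 79.3%. All 5 tested members were called lower at an adjusted p below 0.05 (edgeR quasi-likelihood F-test, Benjamini-Hochberg over all tested genes) and 0 higher. Over all 14151 tested genes 14.6% were called lower and 14.7% higher in this comparison, and the median log2 fold change was 0.00 against -1.33 over the 5 tested members. The 5 members that did not pass the filter are not in that count. Fbn1 and Fbln5 were known to be lower when the members were chosen.

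Fbn1 encodes the main structural protein of microfibrils in adult tissue (ENSMUSG00000027204, chromosome 2, 125142514 to 125349913, minus strand). It stood at 3.15, 3.31 and 2.49 FPKM in the UVA libraries, against 8.17, 8.02 and 7.84 FPKM in the control libraries. The groups were far apart, and the third UVA library was the lowest of all. The log2 fold change was -1.42 ± 0.07 (SE, adjusted p = 6.05e-15, 95% interval -1.56 to -1.27), which puts UVA cells at 37.5% (33.9 to 41.5%) of the control level. The gene overlaps the noncoding gene Gm9913 on the other strand, which had 31 counts in all libraries together.

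Mfap5 encodes MAGP-2, a small glycoprotein that binds fibrillin along the microfibril (ENSMUSG00000030116, chromosome 6, 122482804 to 122506249, plus strand). It was the least abundant of the detected members, at 1.6, 1.61 and 1.33 FPKM in UVA and 3.24, 4.56 and 3.7 FPKM in control libraries. Control libraries varied more among themselves than for any other tested member, relative to their mean, but the lowest of them was above every UVA library. Its log2 fold change was -1.33 ± 0.14 (SE, adjusted p = 1.54e-08, 95% interval -1.61 to -1.04), or 39.8% (32.7 to 48.5%) of control. The ratio of Fbn1 to Mfap5 within a library was 1.81 to 2.15 in co-treated, 1.86 to 2.06 in UVA and 1.76 to 2.52 in control libraries, with overlap between all groups.

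Fbln5 encodes fibulin-5, which binds elastin, the crosslinking enzyme LOXL1 and integrins, and is required for elastic fibre assembly in mice (ENSMUSG00000021186, chromosome 12, 101712824 to 101785314, minus strand). It was at 7.09, 7.53 and 6.04 FPKM in UVA and 19.6, 18.9 and 19.1 FPKM in control libraries. Control libraries lay close together, at 18.9 to 19.6 FPKM, while no UVA library was above 7.53 FPKM. The log2 fold change was -1.47 ± 0.09 (SE, adjusted p = 1.14e-13, 95% interval -1.64 to -1.29), the largest of the 5 tested members, and UVA cells held 36.2% (32.0 to 40.9%) of the control level.

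Fbln2 and Emilin1 were closer to control. Fbln2 was at 57.3, 59.3 and 62.4 FPKM in UVA and 74.2, 76.1 and 77.8 FPKM in control libraries, without overlap, and its log2 fold change was -0.33 ± 0.04 (SE, adjusted p = 2.08e-07, 95% interval -0.42 to -0.25). Emilin1, whose protein sits where elastin meets the microfibrils and also restrains TGF-beta processing (ENSMUSG00000029163, chromosome 5, 31070746 to 31078621, plus strand), was at 4.52, 5.03 and 5.35 FPKM in UVA and 6.17, 6.43 and 6.44 FPKM in control libraries. These too did not overlap, and the gap between the highest UVA and the lowest control library was close to the range of the UVA libraries. Its log2 fold change was -0.34 ± 0.08 (SE, adjusted p = 0.00180, 95% interval -0.50 to -0.17). The groups were apart with UVA lower in all 5 tested members, as in 20.9% of all tested genes.

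**Figure D2:**
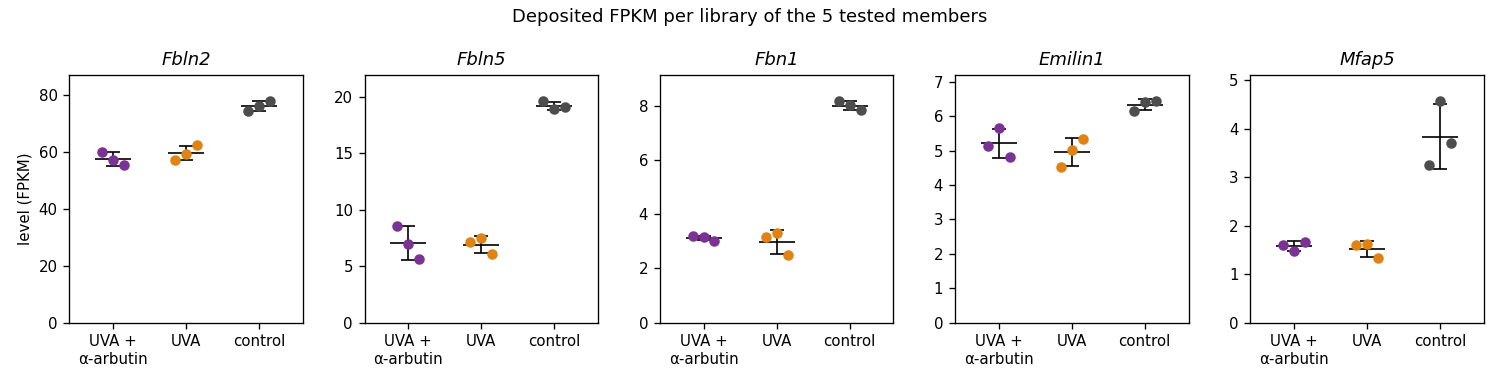
FPKM per library of the 5 tested members in co-treated, UVA and control cells; points are libraries, the horizontal mark is the mean and the bar is 1 SD (n = 3), and each panel has its own axis from 0. Control libraries lie above all libraries of the other groups in every panel, with Fbn1 at 7.84 to 8.17 FPKM in control and at most 3.31 FPKM elsewhere.

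Because both fibulins are counted in each library, their balance could be read within libraries. The ratio of Fbln2 to Fbln5 was 6.99 to 9.81 in co-treated, 7.88 to 10.3 in UVA and 3.79 to 4.09 in control libraries. The ratio of Fbn1 to Fbln2 was 0.0531 to 0.0552 in co-treated, 0.0398 to 0.0559 in UVA and 0.101 to 0.110 in control libraries, and that of Fbn1 to Emilin1 was 0.557 to 0.627 in co-treated, 0.465 to 0.696 in UVA and 1.22 to 1.33 in control libraries. Irradiated cells of either kind therefore did not overlap with control cells in these ratios, whereas Fbn1 to Fbln5 overlapped in all groups at 0.371 to 0.538 in co-treated, 0.412 to 0.444 in UVA and 0.412 to 0.424 in control libraries. For UVA against control, the ratio of Fbln2 to Emilin1 also overlapped, at 11.7 to 12.7 in UVA and 11.8 to 12.1 in control libraries, while co-treated libraries, at 10.1 to 11.7, lay just below control. The exact two-sided permutation p of the non-overlapping ratios was 0.1, the smallest that 3 against 3 libraries allow, and 0.231 after adjustment over the 30 tests of 10 ratios in 3 comparisons. With 3 against 3 libraries no ratio could have reached 0.05, so this test cannot decide whether the ratios differed. In UVA against control cells the 95% intervals of the log2 fold changes of Fbn1, Fbln5 and Mfap5 ended at -1.04 or lower. Those of Fbln2 and Emilin1 began at -0.50 or higher. This grouping was read from the same values, so the intervals describe it and do not test it.

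**Figure D3:**
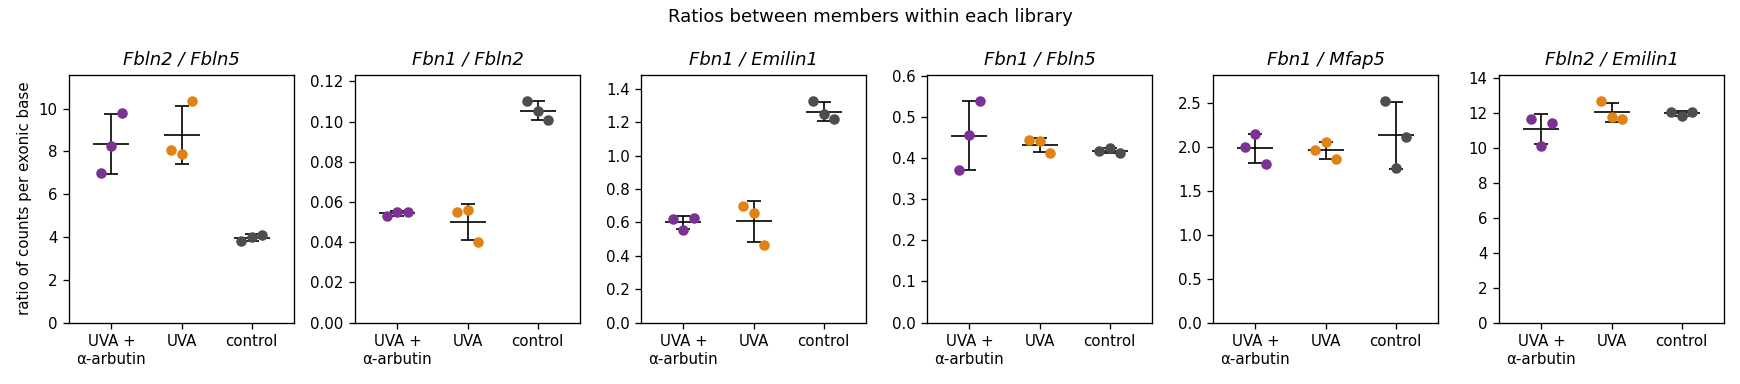
Ratios between members within each library, from counts per exonic base, in co-treated, UVA and control cells; points are libraries, marks and bars are means and SD (n = 3), and axes start at 0. The ratio of Fbln2 to Fbln5 is 3.79 to 4.09 in control and 6.99 to 10.3 in the other libraries, while Fbn1 to Fbln5 and Fbn1 to Mfap5 overlap between all groups.

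Promoter sequences are shown for the genes that were lower together, Fbn1 and Fbln5 from the group with the larger difference and Fbln2 and Emilin1 from that with the smaller. They are the 250 bases before the RefSeq start on GRCm38.p6, a different build from the mm39 coordinates of the table; 6 of the 10 members had an entry. Capitals mark every match on either strand to the letters of 5 motifs given after the sequences; no matches overlap here.
Fbn1 promoter, chr2:125506439-125506688, minus strand: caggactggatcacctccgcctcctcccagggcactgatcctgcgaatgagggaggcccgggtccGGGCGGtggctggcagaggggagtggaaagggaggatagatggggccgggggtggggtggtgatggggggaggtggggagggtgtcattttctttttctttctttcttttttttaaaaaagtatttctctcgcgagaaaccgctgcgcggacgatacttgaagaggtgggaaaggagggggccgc
Fbln5 promoter, chr12:101819120-101819369, minus strand: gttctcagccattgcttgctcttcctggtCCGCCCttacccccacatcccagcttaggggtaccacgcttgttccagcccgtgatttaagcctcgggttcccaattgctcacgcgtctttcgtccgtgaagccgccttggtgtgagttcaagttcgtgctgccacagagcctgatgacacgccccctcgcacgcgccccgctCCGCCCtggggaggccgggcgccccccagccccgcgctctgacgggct
Fbln2 promoter, chr6:91212514-91212763, plus strand: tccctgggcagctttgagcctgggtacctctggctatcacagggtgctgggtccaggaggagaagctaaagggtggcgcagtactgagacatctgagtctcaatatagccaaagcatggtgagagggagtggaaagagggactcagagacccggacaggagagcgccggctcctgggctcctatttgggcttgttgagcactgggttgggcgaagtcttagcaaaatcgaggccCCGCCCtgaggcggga
Emilin1 promoter, chr5:30913536-30913785, plus strand: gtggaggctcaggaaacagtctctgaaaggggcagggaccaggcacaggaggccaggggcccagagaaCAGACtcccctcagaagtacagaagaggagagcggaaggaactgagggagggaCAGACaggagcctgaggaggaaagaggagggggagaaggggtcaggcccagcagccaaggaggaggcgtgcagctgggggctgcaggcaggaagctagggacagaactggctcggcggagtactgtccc
Fbn1 held 1 Sp1 match, whose first base lies 185 bases before the start. Fbln5 held 2, beginning 221 and 48 bases before the start, and Fbln2 held 1, beginning 16 bases before it. Emilin1 held no Sp1 match and 2 SMAD matches, beginning 182 and 129 bases before the start. A further RefSeq start of Fbln5 has 2 SMAD matches and no Sp1 match in its window. The Sp1 motif was searched as GGGCGG and found in 32.7% of 32851 RefSeq windows of this length. For SMAD proteins the letters were CAGAC, in 42.2% of windows. Those for AP-1 were TGANTCA, in 6.75% of windows and in none of the 4 sequences above. The TEAD letters, GGAATG, were in 12.6% of windows and also in none of the 4. Nor did any of them hold the TATA box as TATAAA, which 12.4% of windows did. Matches are descriptions of the letters and not evidence of binding.

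Cells given UVA and alpha-arbutin were also lower than control cells in every tested member. All 5 tested members were called lower and 0 higher, where 12.9% of all tested genes were called lower and 13.0% higher. This comparison shares its control libraries with that of UVA against control. Fbn1 stood at 3.19, 3.16 and 3.03 FPKM in co-treated libraries, at 39.2% (35.5 to 43.4%) of control, with a log2 fold change of -1.35 ± 0.07 (SE, adjusted p = 1.48e-14, 95% interval -1.50 to -1.20). Fbln5 was at 8.59, 6.94 and 5.63 FPKM, the widest spread of its 3 groups, and at 36.9% (32.6 to 41.7%) of control. Mfap5, at 1.6, 1.47 and 1.67 FPKM, was at 41.5% (34.0 to 50.6%) of control, and Fbln2, at 60.1, 57.1 and 55.3 FPKM, at 76.0% (71.8 to 80.6%). All of these libraries were below the lowest control library, and so they were for Emilin1, as in 19.9% of all tested genes. Emilin1 was at 5.15, 5.67 and 4.83 FPKM and its log2 fold change was -0.28 ± 0.08 (SE, adjusted p = 0.0107, 95% interval -0.44 to -0.11), a call that ended without co-treated replicate 3, the lowest of its group (log2 fold change -0.22, adjusted p = 0.0722).

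With alpha-arbutin added to UVA, none of the 5 tested members was called against UVA alone. Fbn1 averaged 3.13 ± 0.0850 FPKM in co-treated and 2.98 ± 0.435 FPKM in UVA cells (SD, n = 3 each), a log2 fold change of 0.07 ± 0.08 (SE, adjusted p = 0.909, 95% interval -0.09 to 0.22). Fbln5 averaged 7.05 ± 1.48 FPKM in co-treated and 6.89 ± 0.766 FPKM in UVA cells, at 0.03 ± 0.09 (SE, adjusted p = 0.974, 95% interval -0.16 to 0.22). Mfap5 averaged 1.58 ± 0.101 FPKM in co-treated and 1.51 ± 0.159 FPKM in UVA cells, at 0.06 ± 0.16 (SE, adjusted p = 0.966, 95% interval -0.26 to 0.38). Co-treated and UVA libraries overlapped for all of the 5 genes, where 10.8% of all tested genes had groups apart. Fbln2 was at 57.5 ± 2.42 FPKM in co-treated and 59.7 ± 2.59 FPKM in UVA cells, at -0.06 ± 0.04 (SE, adjusted p = 0.833, 95% interval -0.14 to 0.02), the only tested member with a negative value. Emilin1 was at 0.06 ± 0.08 (SE, adjusted p = 0.927, 95% interval -0.11 to 0.23).

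The count of 0 members called stands beside 0.0353% of all tested genes called in either direction by edgeR. An unadjusted p below 0.05 was found for 0 members and for 6.76% of all tested genes. DESeq2 also called 0, with 0 at an unadjusted p below 0.05. Without co-treated replicate 1, and likewise without co-treated replicate 3, 1 member had an unadjusted p below 0.05 in edgeR, and 0 were called. A p above the threshold does not show that levels were equal. The 95% intervals do bound the difference: as a share of the UVA level, co-treated cells lay between 93.8 and 117% for Fbn1, 89.5 and 116% for Fbln5, 90.5 and 102% for Fbln2, 92.9 and 117% for Emilin1 and 83.5 and 130.0% for Mfap5. The widest interval belongs to Mfap5, the member with the fewest counts among those tested.

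**Figure D4:**
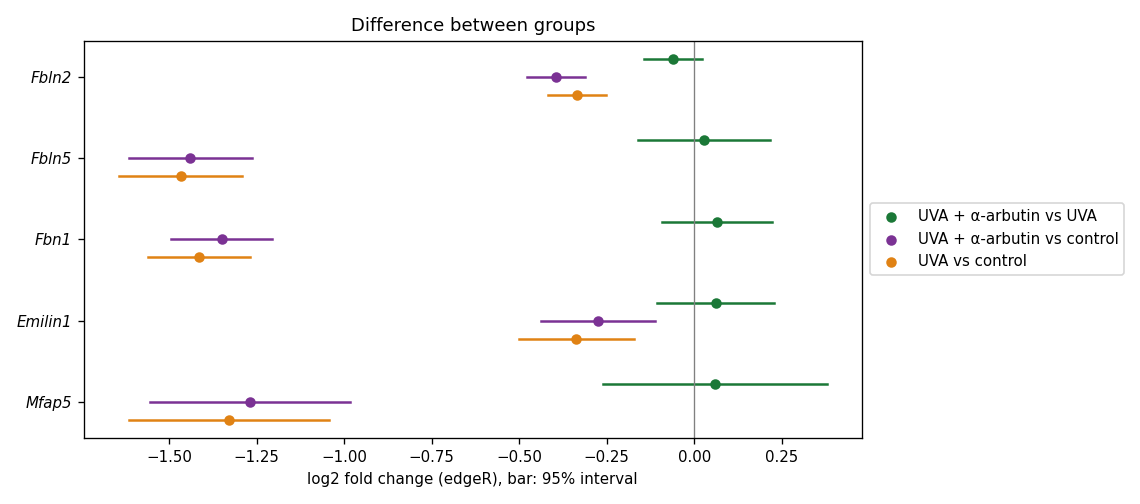
Log2 fold changes of the 5 tested members with 95% intervals (edgeR) in the 3 comparisons; each point is 1 gene in 1 comparison and the vertical line marks no difference. The intervals against control exclude 0 in all members, with the points of Fbn1, Fbln5 and Mfap5 below -1.2, and the intervals of co-treated against UVA cells include 0.

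Genes that act with these proteins were followed in 4 lists. The first holds 13 genes of crosslinking and elastin assembly, 10 of them tested. In UVA against control cells 4 were lower and 4 higher, with a median log2 fold change of -0.05. Over all tested genes 14.6% were called lower and 14.7% higher in this comparison. Lox, the lysyl oxidase that crosslinks elastin and collagen, was at 115 ± 17.7 FPKM in co-treated, 109.5 ± 8.70 in UVA and 255 ± 14.4 in control cells (SD, n = 3 each), a log2 fold change of -1.20 ± 0.07 (adjusted p = 3.47e-14). Loxl1, the lysyl oxidase-like enzyme that partners fibulin-5 in elastin crosslinking, was at -0.94 ± 0.05 (adjusted p = 1.13e-13), and Efemp1, which encodes fibulin-3, at -0.58 ± 0.05 (adjusted p = 5.43e-10). Loxl4 was the fourth gene that fell. Ltbp4, whose protein guides elastin deposition onto microfibrils together with fibulin-5, went the other way at 0.60 ± 0.08 (adjusted p = 2.24e-06), with Loxl3, Furin and Ltbp2 also higher. Ltbp4 and Loxl3 were called higher in all 17 alternative fits, whereas the Furin call ended in 3 of them and the Ltbp2 call in 6. Efemp2, which encodes the elastin assembly factor fibulin-4, was at -0.08 ± 0.05 (adjusted p = 0.249). Fbln7 had 0 counts. The same cells in which Eln had no count thus held abundant Lox RNA in every group.

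Of 16 microfibril partners 15 matched a symbol in the table and 12 were tested. In UVA against control cells 6 were lower and 2 higher, with a median of -0.22, beside 14.6% lower and 14.7% higher of all tested genes. Bgn, the proteoglycan biglycan, was at 138 ± 3.97 FPKM in co-treated, 139.7 ± 2.87 in UVA and 222 ± 5.59 in control cells (SD, n = 3 each), a log2 fold change of -0.65 ± 0.04 (adjusted p = 3.24e-14). Hspg2, which encodes the basement membrane proteoglycan perlecan, was at -0.49 ± 0.05 (adjusted p = 1.51e-09), Adamts10, whose product binds fibrillin-1, at -0.55 ± 0.11 (adjusted p = 2.74e-04), and its relative Adamts6 at -0.57 ± 0.16 (adjusted p = 0.00662), a call that ended in 3 of 17 alternative fits. The versican gene Vcan, whose product also binds fibrillin, was at -0.05 ± 0.04 (adjusted p = 0.347). The 2 higher genes, Tgfb1 and Ltbp3, were at 0.23 ± 0.08 (adjusted p = 0.0389) and 0.11 ± 0.04 (adjusted p = 0.0371). Tgfb3, at -0.25 ± 0.08 (adjusted p = 0.0260), and Ltbp1, at -0.13 ± 0.04 (adjusted p = 0.0222), were the remaining lower ones, so genes of TGF-beta and of its latent binding proteins were called in both directions. Of 17 alternative fits, 8 ended the call of Tgfb1, 7 that of Ltbp3, 4 that of Tgfb3 and 5 that of Ltbp1.

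Of 11 proteases that can cut elastin 10, all but Ctsv, matched a symbol in the table and 4 were tested. Of these 4, 2 were lower and 2 higher in UVA than in control cells. Of all tested genes 14.6% were called lower and 14.7% higher in this comparison. The metalloproteinase genes Mmp2, at -0.44 ± 0.04 (adjusted p = 5.22e-10), and Mmp14, at -0.23 ± 0.04 (adjusted p = 3.63e-05), fell. The lysosomal protease genes Ctsl, at 0.34 ± 0.04 (adjusted p = 1.01e-07), and Ctsb, at 0.28 ± 0.04 (adjusted p = 1.79e-05), rose. The macrophage elastase gene Mmp12 and the matrilysin gene Mmp7 had 0 counts, and the neutrophil elastase gene Elane had 4. Of 11 receptor genes 8 were tested. Ctsa, which encodes cathepsin A, a subunit of the elastin receptor complex, rose at 0.37 ± 0.05 (adjusted p = 4.83e-07), as did the integrin gene Itga5 at 0.24 ± 0.05 (adjusted p = 3.44e-04). The integrin genes Itgav, at -0.20 ± 0.04 (adjusted p = 2.48e-04), and Itgb5, at -0.34 ± 0.07 (adjusted p = 4.21e-04), fell; their integrin is a receptor for RGD sequences such as that of fibulin-5. The median was 0.02 for the proteases and -0.03 for the receptors, against 0.00 over all tested genes.

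Co-treated cells were counted in the same lists against control. Of the 10 tested crosslinking genes 4 were lower and 2 higher, and of the 12 tested microfibril partners 3 and 0. Of the 4 tested proteases 2 were lower and 2 higher, and of the 8 tested receptors 3 and 2. The 3 lower receptors included Itgb3, with 209 counts in all libraries (adjusted p = 0.0426). With 1 library left out, 2 to 3 receptors were called lower. Over all tested genes 12.9% were called lower and 13.0% higher. The 0 higher microfibril partners became 1, Ltbp3, in 6 of 17 alternative fits. Against UVA alone no gene of the 4 lists was called in co-treated cells, where 0.0353% of all tested genes were called in either direction. Lox was at 0.06 ± 0.07 (adjusted p = 0.905) in that comparison and Bgn at -0.03 ± 0.04 (adjusted p = 0.922).

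**Figure D5:**
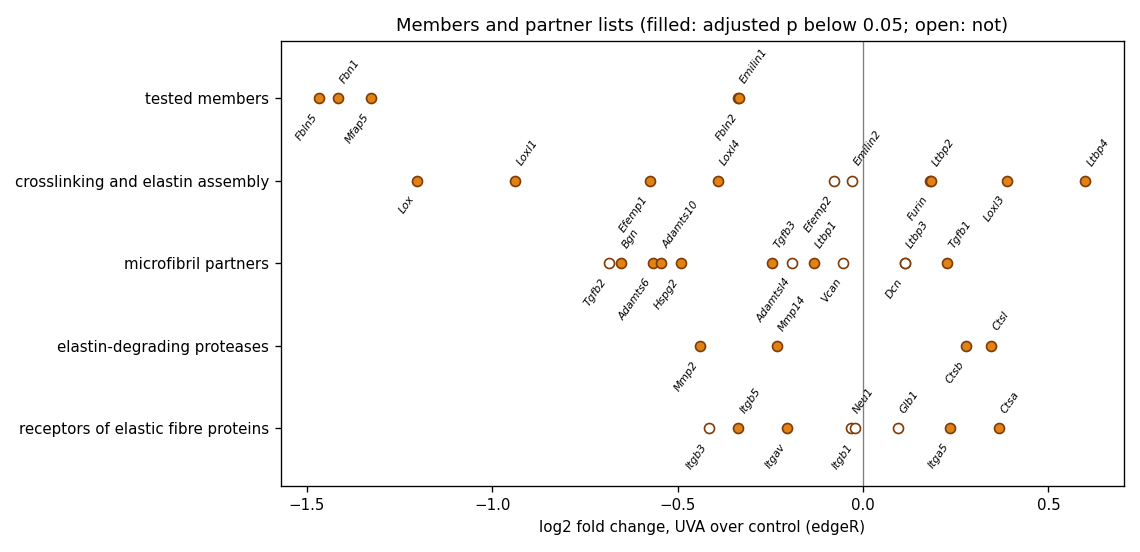
Log2 fold changes of UVA over control (edgeR) for the 5 tested members and the tested genes of the 4 partner lists; each point is 1 gene, filled where the adjusted p was below 0.05. Fbln5, Fbn1 and Mfap5 lie at the left end with Lox and Loxl1, and the partner lists hold genes on both sides of 0; the filled point of Ltbp3 lies under that of Dcn.

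Most tested fibroblast markers, but not all, moved in the same direction as these members. Of the 9 tested fibroblast markers 6 were lower and 1 higher in UVA than in control cells, with a median of -0.72. Over all tested genes 14.6% were called lower and 14.7% higher. The fibrillar collagen genes Col1a1, at -1.71 ± 0.07 (adjusted p = 1.92e-16), and Col3a1, at -1.39 ± 0.05 (adjusted p = 5.15e-17), were among the lower markers. Vim was the higher one, at 0.40 ± 0.04 (adjusted p = 4.90e-10). S100a4, at 0.07 ± 0.04 (adjusted p = 0.170), and Dcn, at 0.11 ± 0.11 (adjusted p = 0.474), were not called. Some markers of other cell types differed too. Acta2, the smooth muscle actin gene that activated fibroblasts also express, was at 2.19 ± 0.480 FPKM in co-treated, 2.77 ± 0.345 in UVA and 15.1 ± 0.946 in control cells (SD, n = 3 each), and its log2 fold change in UVA against control of -2.43 ± 0.12 (adjusted p = 2.45e-15) was larger than that of any member; the other tested smooth muscle markers, Smtn and Des, were not called. Sox9 is a transcription factor gene of chondrocytes. It averaged 48.3 ± 1.46 FPKM in co-treated, 48.4 ± 4.85 in UVA and 33.0 ± 0.584 in control cells (SD). Sox9 was higher in UVA than in control cells at 0.57 ± 0.05 (adjusted p = 1.01e-09), while Acan, Col2a1, Matn1 and Comp had at most 33 counts in all libraries. Of the immune markers Cd68 was called higher, at 0.67 ± 0.20 (adjusted p = 0.0103). Ptprc, with 74 counts in all, was called lower, at -2.82 ± 0.60 (adjusted p = 6.25e-04). With 1 library left out, 0 to 1 immune markers were called higher and 1 lower. The part of these genes in the results for the members was not tested. In RNA of whole cultures, fewer cells expressing a gene and less RNA of it per cell cannot be told apart. The 5 genes whose log2 CPM over the 9 libraries was most like that of Fbn1, among 9096 genes with a mean of at least 10 CPM, were Col5a2 (Pearson r = 0.998), the matrix protein gene Ccdc80 (0.997), the hyaluronan-degrading factor gene Cemip (0.997), Arnt (0.995) and Asns (0.995). Col5a2 encodes a chain of collagen V. Being chosen for their likeness to Fbn1 over libraries that include the controls, these genes had to differ from control in the same direction as Fbn1, and their fold changes are given as a description only. In UVA against control cells they were -1.28 for Col5a2, -1.39 for Ccdc80, -2.49 for Cemip, -0.56 for Arnt and -0.44 for Asns on the log2 scale, so a high correlation did not mean a like size of difference. Fbln5 reached r = 0.982 with Fbn1, Mfap5 0.975, Fbln2 0.923 and Emilin1 0.829; set among those genes, Fbln5 would take place 70 and Emilin1 place 1150. These values describe 9 libraries of which the 3 control libraries stand apart, and libraries and scaling are shared by all genes. Eln could not be given a likeness, having 0 counts.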

How the data were processed

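NIH/3T3 RNA was measured in 9 libraries; groups came from titles and treatment labels. Columns starting with NC were read as control, because MOCK and AA columns carry the remaining titles' names. Per the file headers, the authors' table holds a raw count and an FPKM value per gene and library, with exonic sizes and coordinates. HISAT2 2.2.1, HTSeq 0.6.1, cutadapt 1.9.1, bcl2fastq 2.20.0.422 and build mm39 are listed without roles per the submitters' processing notes; strandedness is not given in the sources used here. The deposited FPKM equal count over exonic size and library total, to within 0.01 for 510219 of 510219 values.

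Counts were tested with edgeR 4.0.16 in R 4.3.3 (filterByExpr, TMM, quasi-likelihood fit on group, all 9 libraries); 14151 of 56691 genes passed, and calls needed a Benjamini-Hochberg adjusted p below 0.05. CPM are TMM-scaled; fold changes are from this fit. Alternatives were DESeq2 1.42.0, limma 3.58.1 on log2 FPKM, other scalings and filters, 2-group fits, a replicate block and leaving out each library. Members and lists were chosen with earlier results of these data known. Named partner genes are the 4 with the smallest p of each list in UVA against control; Loxl3, Loxl4, Furin, Ltbp2, Efemp2, Tgfb1, Ltbp3, Tgfb3, Ltbp1, Vcan, the markers named beside the fibroblast genes and the genes given at 0 or few counts were added after their values were seen. Motifs were searched as letters in RefSeq windows.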

Additional observations from a re-analysis of the deposited data

How the results depend on the processing

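Over 17 alternative fits (9 with 1 library left out, 8 others), the 5 tested members kept their direction against control and all were called lower in both comparisons, except Emilin1 in co-treated against control cells without co-treated replicate 3; 4 to 5 members were called there with 1 library left out. In UVA against control cells log2 fold changes ran from -1.50 to -1.18 for Fbn1, -1.54 to -1.36 for Fbln5, -1.43 to -0.94 for Mfap5, -0.37 to -0.31 for Fbln2 and -0.39 to -0.27 for Emilin1; the values of Fbn1 and Mfap5 nearest 0 came from log2(FPKM + 1), where the pseudocount shrinks low genes. In co-treated against UVA cells 0 members were called in every fit run, and 6 uncalled values changed sign with 1 library left out. Higher calls over all genes, 2079 in UVA and 1833 in co-treated cells against control, were 1297 and 1174 by limma on log2(FPKM + 0.1). For co-treated against UVA cells, 4 genes higher and 1 lower became 20 and 9 without a filter, 11 and 2 by DESeq2, 0 and 0 by limma on log2(FPKM + 1) or log2(FPKM + 0.1), and 16 and 3 with the replicate block; with 1 library left out, 1 to 14 were higher and 0 to 8 lower, the most without UVA replicate 3. The cause was not tested. The labels do not say whether replicate numbers pair the libraries, and the values do not settle it. Same-numbered deviations correlated at -0.0245 to 0.106 over all groups. Each co-treated library correlated best with the UVA library of its own number, at 0.0315 to 0.106 against -0.115 to 0.0215 for other numbers. The block changed no call of a member. In UVA against control cells the 2 higher microfibril partners, Tgfb1 and Ltbp3, became 0 or 1 in 9 fits, the 4 higher crosslinking genes became 2 in 3 fits, and in co-treated against control cells the 0 higher microfibril partners became 1 in 6 fits and the 2 higher crosslinking genes 1 in 1 fit. The 5 untested members hold too few counts to show a difference at this depth.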
